A study of Mus musculus with 6 samples.

Results

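The genes described here are 10 immediate early genes and AP-1 factors, Fos, Fosb, Jun, Junb, Egr1, Ier2, Ier3, Dusp1, Nr4a1 and Atf3, chosen by name from 19938 genes that the arrays measure. Each of the 10 is named alone by exactly 1 probe set, and that probe set was used. RNA of 6 neurosphere cultures was read on Affymetrix Mouse Gene ST 1.0 arrays; neurospheres are balls of neural stem/progenitor cells that grow in suspension. The tissue for both groups was the wall of the lateral ventricle of outbred CD1 mice aged 4 to 6 weeks, and the cells were kept in EGF, FGF and insulin. In the group Empty vector control (n = 3), cells carried a pCMMP retroviral vector that encodes eGFP alone. In the group Bmi1 overexpression (n = 3), the same vector also carried Bmi1, a Polycomb repressor of transcription; the labels give the untagged form, the study's account of the arrays a FLAG-tagged one. Transduced cells of both groups were sorted on eGFP and plated at clonal density with 2000 cells per well, and 300 ng of total RNA went onto an array. The design text calls the 3 cultures of a group independent, and neither it nor the labels tie a culture to a mouse.

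Immediate early genes are transcribed within minutes of a signal, such as a growth factor, without new protein synthesis. Growth factor receptors act through the kinase cascade of the ERK pathway on transcription factors such as SRF, the ternary complex factors and CREB, which bind the promoters of these genes. Proteins of the FOS, JUN and ATF families pair through leucine zippers to form AP-1, which switches on later genes. Dual-specificity phosphatases and Sprouty proteins are induced by the same signals and damp them. Dissociation of tissue or spheres is also known to induce many of these genes. The question put to the data was whether this set differed between neurospheres with the Bmi1 vector and with the empty vector.

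Of the 10 genes, Ier3 rose and Dusp1 fell with the Bmi1 vector, and the other 8 did not pass the test. Ier3, an early response gene linked to cell survival, was 3.53-fold higher (95% confidence interval 2.40 to 5.20). Dusp1, a nuclear phosphatase that inactivates MAP kinases, was 1.57-fold lower (1.39 to 1.77). The AP-1 subunits Fos, Fosb, Jun and Junb had log2 differences between -0.30 and 0.14, none of which passed. Here and below a gene rose or fell when its Benjamini-Hochberg adjusted p from limma was under 0.05 over all 35557 probe sets, and differences are Bmi1 overexpression minus Empty vector control on the log2 scale.

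The promoters of both genes that passed are shown with that of Fos, the best known gene of the set, so that the regulatory letters next to these genes can be read. They are the 250 bases before the annotated start, 5′ to 3′ on the strand of the gene, taken from RefSeq (GRCm38.p6). The Ier3 window is chr17:35821463-35821712 on the plus strand, the Dusp1 window is chr17:26508473-26508722 on the minus strand and the Fos window is chr12:85473640-85473889 on the plus strand. Capitals mark letters searched for on both strands: TGACG, the core of the cAMP response element (CRE), the full CRE TGACGTCA, the E-box motif CACGTG, the promoter element CCAAT that binds the factor NF-Y, and a strict form of the TATA box, which is spelled TATAAA.
Ier3: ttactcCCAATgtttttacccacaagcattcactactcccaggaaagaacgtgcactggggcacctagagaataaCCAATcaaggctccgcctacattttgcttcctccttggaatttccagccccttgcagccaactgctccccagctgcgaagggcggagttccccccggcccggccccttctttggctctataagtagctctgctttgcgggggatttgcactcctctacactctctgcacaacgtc
Dusp1: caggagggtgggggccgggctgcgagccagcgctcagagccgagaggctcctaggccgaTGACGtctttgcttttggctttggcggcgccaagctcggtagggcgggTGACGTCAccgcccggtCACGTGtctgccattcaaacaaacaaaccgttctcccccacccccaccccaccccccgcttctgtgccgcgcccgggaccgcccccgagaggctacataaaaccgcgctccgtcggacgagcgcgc
Fos: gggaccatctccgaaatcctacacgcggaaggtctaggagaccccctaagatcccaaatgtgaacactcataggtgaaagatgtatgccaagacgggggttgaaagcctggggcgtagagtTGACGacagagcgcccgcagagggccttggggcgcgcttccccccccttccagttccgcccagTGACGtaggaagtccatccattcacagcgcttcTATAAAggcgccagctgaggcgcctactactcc

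The Dusp1 window held the full CRE at 143 to 136 bases before the start, a further TGACG at 191 to 187 and an E-box at 126 to 121. The Fos window held TGACG at 129 to 125 and at 66 to 62 bases before the start, and TATAAA at 33 to 28. In the Ier3 window CCAAT was the only one of the searched motifs, at 244 to 240 and at 175 to 171 bases before the start.

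Promoter windows were found by symbol for 8 of the 10 genes, all but Egr1 and Ier2. TGACG, which the full CRE contains, was present in 6 of these 8 windows (Fos, Fosb, Junb, Dusp1, Nr4a1 and Atf3) and in 17.8% of all 32851 promoter windows of the same length. The full CRE was present in the Dusp1 window alone among the 8 and in 1.55% of all windows. The AP-1 site TGACTCA was in none of the 8 and in 4.46% of all, and CCAAT was in 3 of the 8 (Jun, Junb and Ier3) and in 33.8% of all. The number of CpG dinucleotides ran from 8 in Ier3 to 34 in Nr4a1, with 28 in Dusp1 and 15 in Fos, against a median of 6 over all windows. TGACG and the full CRE each contain a CpG, and the shares over all windows were not matched for CpG number. These are matches of letters, and the arrays did not measure binding or methylation at them.

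The arrays were checked before the comparison. In the labels the source field contradicts the title, transduction and genotype fields of every array, and the groups here rest on those 3 fields, which do not conflict with each other. The Bmi1 probe set read 7.70, 8.40 and 8.31 on the empty vector arrays. On the Bmi1 arrays it read 9.18, 8.36 and 8.42, and the difference of 0.52 missed the threshold (adjusted p = 0.38, limma). Replicate 2 with the Bmi1 vector was within the range of the empty vector arrays and replicate 3 was just above it, so Bmi1 as measured here did not tell the groups apart. Epha7, an Eph receptor, and Cdkn2a, a classical target of repression by Bmi1, had differences of -3.82 and -1.08 (adjusted p = 1.1e-04 and 0.0012, limma). Array medians were 4.37 to 4.45, and correlations across probe sets were 0.991 to 0.993 within groups and 0.985 to 0.987 between them. Over all probe sets 794 rose and 1231 fell, or 5.70% of 35557, and the split became 593 and 1467 when each array was centred on its median. The neural stem markers Nes and Sox2 had means of 9.69 and 10.2 in the control group and of 9.64 and 10.4 under Bmi1 overexpression. Neither passed, but 5 of the 13 neural stem markers measured rose, so the list as a whole was not alike in the groups. In such bulk RNA, fewer cells of a type and less RNA per cell cannot be told apart.

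The transcription factors of the AP-1 family came first. Fos, which needs a JUN partner to bind DNA, read 6.40, 6.29 and 6.64 on the empty vector arrays and 6.25, 6.29 and 6.40 on the Bmi1 arrays. The groups overlapped, and the SD of 0.18 within the empty vector group was larger in size than the difference of -0.13 (SE 0.11, 95% confidence interval -0.39 to 0.13, adjusted p = 0.58, limma). Fosb, a FOS paralogue that activity also induces in neurons, read 4.32, 4.25 and 4.10 on the empty vector arrays and 4.03, 3.92 and 3.81 on the Bmi1 arrays. All 3 arrays with the Bmi1 vector were below all 3 with the empty vector, but the difference of -0.30 (SE 0.09, interval -0.52 to -0.07) did not pass over all probe sets (adjusted p = 0.14, limma). Jun, the main partner of FOS proteins, read 8.44, 8.32 and 8.44 on the empty vector arrays and 8.46, 8.47 and 8.69 on the Bmi1 arrays. The groups did not overlap but were only just apart, 8.44 at the top of one and 8.46 at the bottom of the other, and the difference of 0.14 (SE 0.09, interval -0.08 to 0.35) did not pass (adjusted p = 0.48, limma). Junb, a JUN protein that often opposes Jun, read 5.53, 5.36 and 5.43 on the empty vector arrays and 5.30, 5.51 and 5.21 on the Bmi1 arrays. Its groups overlapped, with a difference of -0.10 (SE 0.10, interval -0.34 to 0.14, adjusted p = 0.64, limma).

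Atf3, a stress-induced leucine zipper protein of the ATF/CREB family that can pair with JUN, read 4.87, 4.68 and 4.71 on the empty vector arrays and 4.82, 4.65 and 4.73 on the Bmi1 arrays. In both groups replicate 1 was the highest and replicate 2 the lowest, and the groups overlapped almost entirely. Its difference was -0.02 (interval -0.23 to 0.18, adjusted p = 0.92, limma).

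The inducible factors outside AP-1 also overlapped between groups. Egr1, a zinc finger transcription factor and a common readout of ERK activity, read 8.19, 8.03 and 8.16 on the empty vector arrays and 8.01, 8.10 and 8.16 on the Bmi1 arrays. Its difference of -0.04 had an interval of -0.22 to 0.15 (adjusted p = 0.85, limma). Nr4a1, an orphan nuclear receptor also called Nur77, read 7.01, 7.02 and 7.19 on the empty vector arrays and 7.03, 7.20 and 7.20 on the Bmi1 arrays. Both groups spanned nearly the same values, with a difference of 0.07 (interval -0.14 to 0.28, adjusted p = 0.73, limma). Ier2, an early response nuclear regulator, read 5.97, 5.75 and 6.15 on the empty vector arrays and 6.10, 5.89 and 6.02 on the Bmi1 arrays. All 3 Bmi1 values lay between the lowest and the highest empty vector value, and the difference was 0.05 (interval -0.24 to 0.34, adjusted p = 0.87, limma).

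**Figure D1:**
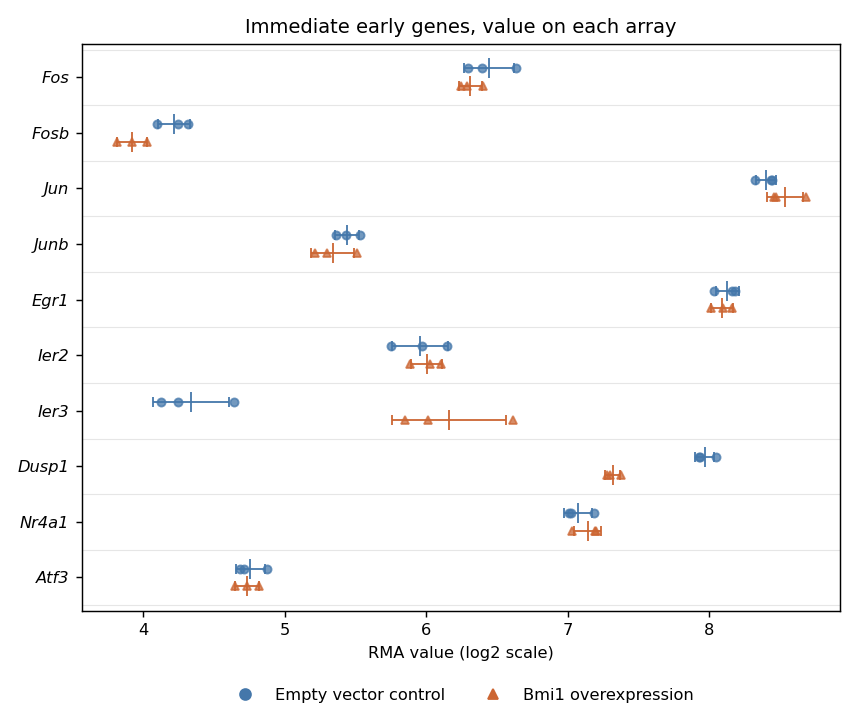
Value of each of the 10 genes on each of the 6 arrays (x axis, RMA value on the log2 scale); circles are Empty vector control, triangles are Bmi1 overexpression, and the vertical mark and bar give the mean ± SD of 3 arrays. The groups are set apart for Ier3 and Dusp1, lie next to each other for Fosb and Jun, and overlap for the other 6.

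Ier3 (probe set 10444890, chromosome 17) read 4.24, 4.64 and 4.13 on the empty vector arrays and 5.85, 6.01 and 6.61 on the Bmi1 arrays. Every array with the Bmi1 vector was above every array with the empty vector, and replicate 3 was the highest of them. Means were 4.34 ± 0.27 (SD, n = 3) and 6.16 ± 0.40 (SD, n = 3), a difference of 1.82 (SE 0.23, interval 1.26 to 2.38, adjusted p = 0.0086, limma). The empty vector mean was just below the array medians of 4.37 to 4.45. RMA tends to understate folds taken from such dim values, so the fold of Ier3 is uncertain in size. Ier3 also varied more within groups than nearly all genes: its within-group SD of 0.34 was larger than that of 99.2% of the 19938 genes, whose median was 0.11. No single array was needed for the call: with each left out in turn, adjusted p was 0.018 to 0.042 and the difference 1.59 to 1.98. It was lost when the variance was taken from this probe set alone, with an adjusted p of 0.06 by the methods' t-test and 0.12 by its form for unequal variances.

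Dusp1 (probe set 10449284, chromosome 17) read 7.93, 7.93 and 8.05 on the empty vector arrays and 7.30, 7.38 and 7.28 on the Bmi1 arrays. The 2 groups were tight and well apart, with means of 7.97 ± 0.07 (SD, n = 3) and 7.32 ± 0.05 (SD, n = 3). The difference was -0.65 (SE 0.07, interval -0.82 to -0.48, adjusted p = 0.0053, limma). Its within-group SD of 0.06 was larger than that of 15.2% of genes. Dusp1 passed with every array left out in turn (adjusted p 0.021 to 0.029) and in all 17 alternative fits with adjusted p-values. By the exact permutation test over 3 against 3 arrays, Ier3 and Dusp1 both gave p = 0.1, the smallest value that this design allows.

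**Figure D2:**
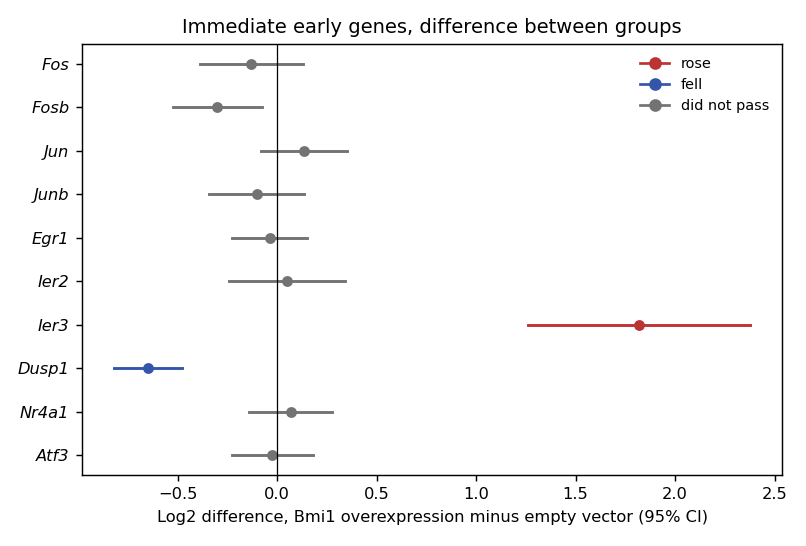
Log2 difference of each gene (x axis, Bmi1 overexpression minus Empty vector control) with its 95% confidence interval from limma, n = 3 arrays per group; red marks a gene that rose, blue one that fell and grey one that did not pass. Ier3 is at 1.82 and Dusp1 at -0.65, and the 8 grey points lie between -0.30 and 0.14.

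As a set, 1 of 10 rose and 1 of 10 fell, or 20%, against 2.98% and 4.37% of the 19938 genes and 7.35% in both directions. With 10 genes, each call is 10 percentage points, and the comparison is a description. Groups did not overlap for 4 of the 10 genes (Fosb, Jun, Ier3 and Dusp1), against 31.3% of all genes. The median difference over the 10 was -0.03, against 0.01 over the 19938 genes and 0.02 over all probe sets. Of the 10 differences, 4 were positive and 6 negative.

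For the 8 genes that did not pass, the 95% intervals give a range for the difference in array value. They hold gene by gene and were not adjusted for the number of genes. They ran from -0.52 to 0.35 in all. For 7 of the 8, all but Fosb, the interval lay wholly within 0.5 on either side of 0, which is 1.41-fold; this limit was chosen after the values were seen. Larger differences than that lay outside the intervals of Fos, Jun, Junb, Egr1, Ier2, Nr4a1 and Atf3. Fosb and Atf3 had mean values of 4.07 and 4.74, near the array medians of 4.37 to 4.45. RMA tends to understate folds of such dim genes, so their intervals may not cover the difference in transcript.

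Arrays of 1 group also differed among themselves across the set. With the empty vector, replicate 2 was the lowest of 3 for 7 of the 10 genes and the highest for 1, Ier3. Replicate 3 with the empty vector was the highest for 5, among them Fos and Ier2. With the Bmi1 vector, replicate 3 was the highest for 5 (Fos, Jun, Egr1, Ier3 and Nr4a1) and the lowest for 3 (Fosb, Junb and Dusp1). The median deviation of an array from its group mean over the 10 genes was between -0.08 and 0.04, with -0.08 on replicate 2 of the empty vector. The deviations of Ier3 itself ran from -0.31 to 0.46, beside its difference of 1.82. Those of Dusp1 ran from -0.04 to 0.08, beside its difference of -0.65.

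**Figure D3:**
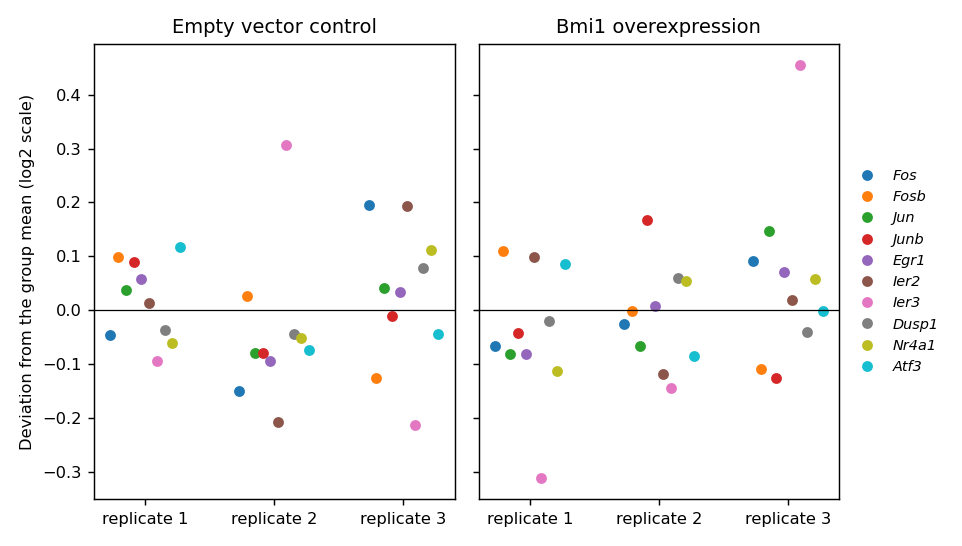
Deviation of each gene on each array from the mean of its own group (y axis, log2 scale), for the 3 arrays of Empty vector control (left) and of Bmi1 overexpression (right); each colour is 1 gene. Most points of replicate 2 with the empty vector lie below 0, and Ier3 has the widest deviations, from -0.31 to 0.46.

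Neighbouring genes on chromosome 17 did not move past the test with either gene. Next to Ier3, Ddr1 and Flot1 had differences of 0.01 and -0.17, and beyond them Gtf2h4 and Tubb5 had 0.01 and -0.01. Next to Dusp1, Neurl1b had 0.45 (adjusted p = 0.053, limma) and 1700049J03Rik had -0.11 (adjusted p = 0.62), while Ergic1 and Luc7l beyond them had -0.27 and -0.10 (adjusted p = 0.065 and 0.49). The difference of Neurl1b was opposite in sign to that of Dusp1. Order on the chromosome was taken from the RefSeq gene table.

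Partners of the AP-1 subunits were examined next. Of 13 other AP-1 and related leucine zipper genes, 0 passed with limma, and 4 had an unadjusted p under 0.05. The methods' t-test after adjustment also called 0, and limma with a variance trend called 1, Atf7, a relative of Atf2. Atf7 had -0.33 (adjusted p = 0.083, limma) and Jund, the JUN protein present in resting cells, had -0.21 (adjusted p = 0.17). The FOS-related genes Fosl1 and Fosl2 had 0.17 and 0.05. The median of the 13 was 0.05.

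Other immediate early genes were mostly without a call. Of 47 measured, 0 rose, 4 fell and 43 did not pass, or 8.51% called beside 7.35% of all genes, and the median was -0.10. Differences were negative for 32 and positive for 15 of the 47. The groups did not overlap for 26 of the 47, against 31.3% of all genes. Trib1, a pseudokinase that directs protein degradation, fell by 0.57 (adjusted p = 0.0080, limma), and Plk2, a polo-like kinase, fell by 0.65 (adjusted p = 0.015). Sertad1, a transcriptional coregulator, fell by 0.40 (adjusted p = 0.036), and Rgs2, which turns off G protein signals, fell by 0.36 (adjusted p = 0.049). Of these, Trib1 passed with each array left out, while Plk2 lost its call in 4 of 6 such fits and Sertad1 and Rgs2 in all 6. The other EGR and NR4A genes did not pass: Egr2 and Egr3 had 0.40 and 0.12, and Nr4a2 and Nr4a3 had -0.06 and 0.28.

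Feedback inhibitors of the ERK pathway are the group to which Dusp1 is closest in function. The list of 19 genes also holds phosphatases such as Dusp10 that act mainly on JNK and p38. Of the 19, 0 rose, 6 fell and 13 did not pass, or 31.6% called beside 7.35% of all genes. Of all genes 4.37% fell. The median difference was -0.17. Dusp7, a cytoplasmic ERK phosphatase, had the largest fall of the list, from 9.48 to 7.98 on average, 2.84-fold (difference -1.51, adjusted p = 0.0023, limma). Dusp4, a nuclear phosphatase related to Dusp1, fell from 6.92 to 5.89 (difference -1.03, adjusted p = 0.0019). Dusp6, which acts on ERK in the cytoplasm, fell from 11.1 to 10.3 (difference -0.84, adjusted p = 0.0082). The Sprouty genes Spry4 and Spry1, inhibitors of receptor signalling, fell by 0.89 and 0.73 (adjusted p = 0.0047 and 0.015), and Nab2, a corepressor that binds EGR proteins, fell by 0.43 (adjusted p = 0.020). Over the list, the groups did not overlap for 15 of 19 genes, against 31.3% of all genes. Dusp4, Dusp6, Dusp7 and Spry4 passed with every array left out, whereas Spry1 lost its call in 4 of 6 such fits and Nab2 in 5.

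Not every gene of the list had a negative difference. Dusp9, Dusp10 and Dusp2 had 0.50, 0.33 and 0.30, none past the test (adjusted p = 0.12, 0.055 and 0.17, limma). Spry2 and Spred1 had -0.17 and -0.36, and neither passed. Dusp4 and Dusp7 are in the study's own table of changed genes, which was read before the list was made, so they are not independent evidence of its direction.

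**Figure D4:**
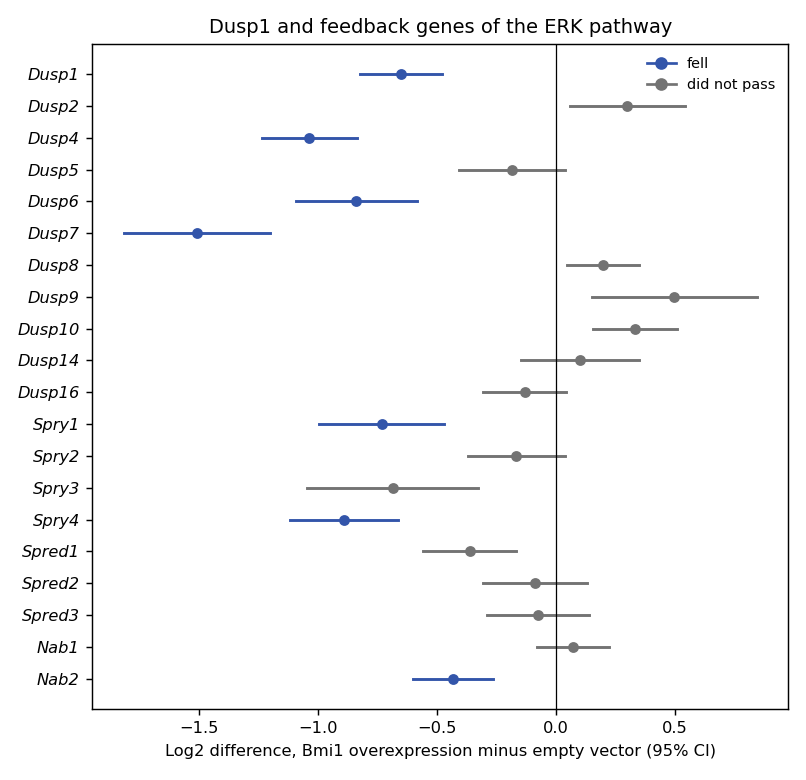
Log2 difference (x axis, Bmi1 overexpression minus Empty vector control) with its 95% confidence interval from limma for Dusp1 and the 19 genes listed as feedback genes. Blue marks genes that fell and grey those that did not pass, n = 3 arrays per group. Dusp7 at -1.51, Dusp4 at -1.03, Spry4, Dusp6, Spry1 and Nab2 lie on the same side as Dusp1, and Dusp9 and Dusp10 lie on the other side without passing.

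Upstream of the immediate early genes, growth factor receptors and MAP kinases moved in both directions. Of 31 genes measured, 5 rose, 6 fell and 20 did not pass, or 35.5% called beside 7.35% of all genes, and the median was -0.19. Among those that fell, Rps6ka6, a member of the RSK kinase family, had -3.51, with means of 6.93 and 3.41 (adjusted p = 3.5e-04, limma). Map2k1, the ERK kinase MEK1, fell by 1.01 (adjusted p = 8.3e-04), Braf, which activates it, fell by 0.75 (adjusted p = 0.022), and Fgfr1, an FGF receptor, fell by 0.40 (adjusted p = 0.018). Egfr, the receptor of the EGF in the medium, had -0.14 and did not pass (adjusted p = 0.29), and neither did Fgfr3, another FGF receptor, at 0.85 (adjusted p = 0.057). Among those that rose, Map3k5 and Map3k1, kinases at the top of the JNK and p38 cascades, rose by 1.12 and 0.71 (adjusted p = 0.0023 and 0.0063). The p38 kinase Mapk12 and the JNK kinase Mapk10 rose by 0.91 and 0.51 (adjusted p = 0.0039 and 0.011). Other genes of the JNK and p38 cascades had differences of the opposite sign that did not pass: Mapk9 and Mapk8 had -0.37 and -0.19, and Map2k4, Map2k3 and Map2k6 had -0.30, -0.23 and -0.22. Rps6ka5 and Mapkapk2, which fell, and Mapk11, which rose, were the other called genes, and they lost their calls in 4, 5 and 5 of 6 fits with an array left out. These 3 and the genes of this list that did not pass were named after their values were seen. Rps6ka6, Map2k1 and Map3k5 are likewise in the study's table. Of the 8 named first, Fgfr1 lost its call in all 6 fits with an array left out, Braf in 4 and Mapk10 in 2, and the other 5 in none.

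Of 12 factors of the SRF, ternary complex and CREB families and their cofactors, Elk3 alone passed. Elk3, a ternary complex factor that can repress Fos, fell by 0.71 (adjusted p = 0.013, limma), and its call was lost without replicate 1 of Bmi1 overexpression (adjusted p = 0.054). Srf itself had -0.19 (adjusted p = 0.15) and Elk1 had -0.12. The median of the 12 was -0.08.

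Downstream, known targets of AP-1 included genes called in both directions. Of 28 measured, 5 rose, 2 fell and 21 did not pass, or 25% called beside 7.35% of all genes, with a median of 0.10. Ezr, a membrane linker that is also in the study's table, rose by 1.17 (adjusted p = 0.0046, limma), and Gja1, the gap junction protein connexin 43, rose by 0.76 (adjusted p = 0.0043). Itga5, an integrin, and Tgfb1, a growth factor, rose by 0.65 and 0.62 (adjusted p = 0.021 and 0.034), and Mmp14, a membrane metalloprotease named after its values were seen, was the other that rose. Ccnd1, cyclin D1, fell by 0.44 (adjusted p = 0.020), and Nqo1, a detoxifying enzyme, fell by 0.61 (adjusted p = 0.041). Gja1 and Ezr passed with every array left out, and each of the other called targets lost its call in at least 4 of 6 such fits. Gja1 is also one of the astrocyte markers below.

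The cytoskeletal targets of SRF were called at 23.5% beside 7.35% of all genes, 2 up and 2 down of 17, with a median of 0.08. Tagln2 and Tpm1, which bind actin, rose by 1.28 and 0.64 (adjusted p = 0.0028 and 0.0088, limma). Acta2, smooth muscle actin, fell by 1.34 (adjusted p = 0.023) and Fhl1, a LIM domain protein, fell by 0.67 (adjusted p = 0.0065). The call of Acta2 was lost in 4 of 6 fits with an array left out. Tagln2 is in the study's table.

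**Figure D5:**
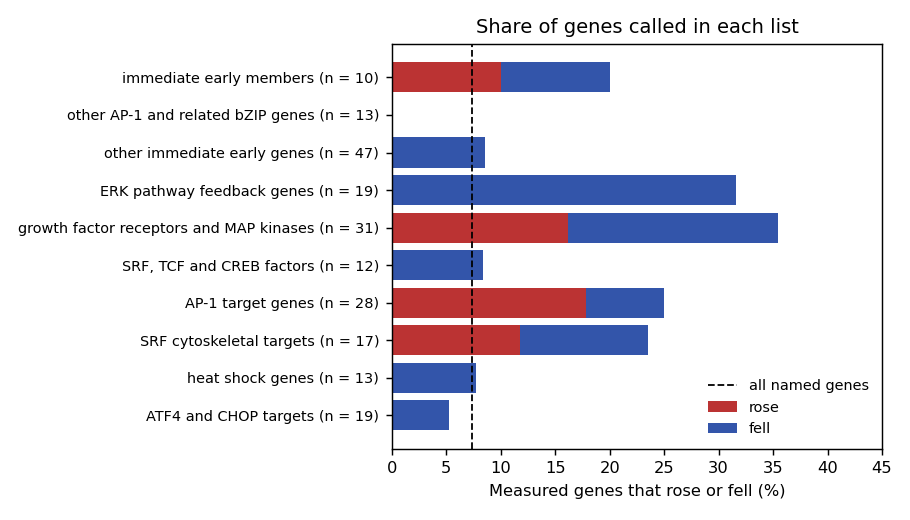
Share of measured genes that rose (red) or fell (blue) in the 10 genes and the 9 pathway lists (x axis, percent, adjusted p under 0.05 from limma, n = 3 arrays per group); the number of measured genes stands in the label and the dashed line is the 7.35% of all named genes. Feedback genes (31.6%) and receptors and kinases (35.5%) have the longest bars among the lists drawn, which leave out the cell type markers, and the bar of the other AP-1 genes is empty.

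Genes that report on handling and stress were listed because dissociation and sorting can induce immediate early genes. Of 13 heat shock genes, 0 rose and 1 fell, Bag3, a cochaperone (difference -0.54, adjusted p = 0.024, limma), which lost its call in 5 of 6 fits with an array left out, and their median was 0.02. Of 19 targets of the stress factors ATF4 and CHOP, 0 rose and 1 fell, Sesn2, a stress-induced regulator of metabolism (difference -0.72, adjusted p = 0.0031), and their median was -0.05. These are 7.69% and 5.26% called, beside 7.35% of all genes. On the Bmi1 arrays some genes of these and other lists stood apart on replicate 3, where Ier3 was also highest. Vldlr, an ATF4 and CHOP target, read 7.32, 7.23 and 8.10 on replicates 1 to 3. Of the AP-1 targets, Vegfa read 6.25, 6.28 and 8.65, and Mt2 read 10.05, 9.92 and 11.01. The heat shock genes Hspa1a and Hspb8 were lowest on replicate 3, at 4.75 and 4.53. These genes were named after their values were seen. Without replicate 3 the difference of Ier3 was 1.59. The part of handling in the differences of Ier3 and Dusp1 was not tested.

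Cell type markers are given beside these results, against 2.98% of all genes that rose and 4.37% that fell. Neural stem markers rose in 5 of 13 and fell in 0, with a median of 0.24, and astrocyte markers rose in 4 of 10 and fell in 0, with a median of 0.34. Sox9 is in both lists and counts in both as a gene that rose (difference 0.62, adjusted p = 0.0056, limma). Oligodendrocyte lineage markers rose in 2 and fell in 1 of 11, and neuron and neuroblast markers rose in 5 and fell in 1 of 12, with medians of 0.16 and 0.29. Pericyte and fibroblast markers rose in 0 and fell in 2 of 12, Acta2, which is also one of the SRF targets above, and Twist1, while 7 of the 12 differences were positive and the median was 0.04. The means of these 2 were 9.02 and 7.37 with the empty vector and 7.68 and 4.96 under Bmi1 overexpression. The summed level of the 12 on the linear scale was 830.2 to 1070 with the empty vector and 497.4 to 618.1 with the Bmi1 vector. This lower sum went with Acta2 and Twist1, and mean values of single markers in this list went down to 1.98 on the log2 scale. The summed level of the neural stem markers was 14930 to 15590 and 16250 to 16940 in the same order, and that of the astrocyte markers was 5457 to 5789 and 5712 to 6234. For oligodendrocyte lineage markers it was 4812 to 4824 and 4968 to 5280, and for neuron and neuroblast markers 1901 to 1933 and 1574 to 1670. Bright genes weigh most in such a sum. The brightest were Vim and Fabp7 in the neural stem list and Olig1 and Olig2 in the oligodendrocyte list. None of these passed. The lower sum of the neuron and neuroblast markers went with Map2, the one that fell, which had means of 10.6 and 10.2. Twist1, Map2, Sox9, Vim, Fabp7, Olig1 and Olig2 were named after their values were seen. The groups overlapped in the summed level of the astrocyte markers and not in those of the other 4 lists. Their part in the differences of Ier3, Dusp1 and the feedback genes was not tested.

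Microglia, endothelial and ependymal markers gave 0 calls of 12, 9 and 8 with limma, with the methods' t-test after adjustment and with its form for unequal variances. An unadjusted p under 0.05 from limma was found for 0, 1 and 1 of them. The summed level of the microglia markers was 153 to 165.9 with the empty vector and 155.6 to 170.8 with the Bmi1 vector, and that of the endothelial markers was 141.6 to 149.2 and 153.9 to 157.4. That of the ependymal markers was 186 to 194.1 and 181.1 to 186.7. Mean values of single microglia markers on the log2 scale were between 2.50 and 4.66.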

How the data were processed

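RNA of 6 neurosphere cultures was hybridised to 1 Affymetrix Mouse Gene ST 1.0 array each. The authors deposited log2 values per probe set made by RMA in Affymetrix Expression Console (tools named by the submitters' processing notes), with no detection calls; their versions were not given. RMA draws low signals together, so that folds of dim genes tend to be understated. Groups followed titles, transduction and genotype fields. Gene names came from the platform annotation, which gives 1 gene for 21789 of 35557 probe sets, several for 1621 and none for 12147. Per gene the probe set with the highest mean was used.

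The comparison used lmFit and eBayes of limma 3.58.1 (R 4.3.3), two-sided and unfiltered, adjusted by Benjamini-Hochberg across the whole table, and the script was tested on simulated data. Precision is limited by 3 arrays per group. Alternatives were the methods' t-test (p under 0.001 with differences of 1 or more, and after adjustment), its Welch form, probe sets with a mean of at least 5 or 6, quantile normalization, median centring, 1 probe set per gene, a variance trend with and without a robust prior, array weights, a replicate block and each array left out. Motifs were searched in RefSeq promoter windows. Figures were drawn with matplotlib 3.10.9.

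The 10 genes and the 18 lists, with 312 symbols of which 289 were measured, were chosen with earlier results of these data known. Named genes were the 10, up to 8 called genes of each AP-1, feedback, kinase and SRF list, up to 6 of each other pathway list by smallest adjusted p, and Bmi1, Epha7 and Cdkn2a.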

Additional observations from a re-analysis of the deposited data

How the results depend on the processing

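Of the 10 genes, 2 passed in the main comparison and in all alternatives except those named here. With the methods' t-test after adjustment and with its Welch form 1 passed, Dusp1, and at a mean of at least 6 it was again 1, because the mean of Ier3 was below that limit and it was not tested. At the methods' own threshold 0 passed, since the t-test p of Ier3 was 0.0029 and the difference of Dusp1 was under 1 in size; 3 of the 10 had an unadjusted p under 0.05 by that test. Leaving out 1 array kept 2 calls each time. Over all probe sets 2025 passed, against 210 with the Welch form, 3424 and 3193 at a mean of at least 5 and 6, 3190 with a variance trend, 3062 with a robust prior as well and 300 (100 higher, 200 lower) at the methods' threshold, and 974 to 1275 with 1 array left out. The 4 calls among other immediate early genes became 1 to 3 with 1 array left out (the 3, without Bmi1 overexpression replicate 1, are 2 falls and 1 rise), the 11 among receptors and MAP kinases became 5 to 10, the 7 among AP-1 targets became 3 to 4 and the 6 among feedback genes became 4 to 5. Same-numbered arrays had correlations of deviations of 3.4e-05, -0.03 and -0.02, so no pairing by replicate number was visible. With 3 arrays per group this cannot show that same-numbered cultures were unpaired. With replicate number as a block, 850 probe sets passed, with 2 of the 10 genes (adjusted p = 0.048 for both Ier3 and Dusp1, limma), 4 feedback genes, 7 receptors and kinases, 2 AP-1 targets and 0 of the other immediate early genes.

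Some differences near 0 turned sign. Egr1 became 0.0115 with quantile normalization and 0.0041 without Bmi1 overexpression replicate 1. Ier2 became -0.0040 with median centring, -0.0555 without Empty vector control replicate 2 and -0.0009 without Bmi1 overexpression replicate 1. Atf3 became 0.0353 without Empty vector control replicate 1 and 0.0191 without Bmi1 overexpression replicate 2. With 1 array left out, the differences ranged from -0.0828 to 0.0041 for Egr1, from -0.0555 to 0.1453 for Ier2 and from -0.0665 to 0.0353 for Atf3. The cause was not tested. Averaging every probe set of a gene gave the main value, since each of the 10 has 1.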
